A study of Mus musculus with 4 samples.

Results

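The Slc25 family of carrier genes was followed across 4 Affymetrix mouse expression arrays made from embryonic stem cells. Members were all probe sets for which the platform annotation gave a lone gene symbol that began with Slc25a or was Ucp1, Ucp2 or Ucp3, with Slc25a31 left out by the rule. This gave 95 of the 45101 probe sets on the array and 45 of the 18193 genes that had a probe set named in this way, and Ucp2 was not analysed here. Where a gene had several probe sets, the brightest by mean log2 signal over the 4 arrays stood for it. The Chd4 RNAi group (n = 2 arrays) was the J1 embryonic stem cell line Chd4i-1, which carries a Tet-on inducible RNAi construct against Chd4, after 3 days with 5 ng/ml doxycycline. The control group (n = 2) was the same line, construct included, kept without doxycycline. Both groups were grown on gelatin with 15% serum and leukaemia inhibitory factor, and all arrays come from this 1 inducible line. The arrays of a group are described as biological duplicates, with no statement on separate cultures beyond that.

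Slc25 carriers are small helical proteins that sit, with few exceptions, in the inner mitochondrial membrane, which is otherwise closed to most metabolites. They exchange or import nucleotides, phosphate, organic acids, amino acids, acylcarnitines, cofactors and iron, and so connect the cytosol with oxidative phosphorylation and the citric acid cycle. The uncoupling proteins belong to the same family, Slc25a17 is found in peroxisomes and Slc25a46 in the outer mitochondrial membrane. The proteins are made in the cytosol and reach the inner membrane through the receptor Tom70, the small Tim chaperones and the TIM22 complex. Pluripotent cells of the mouse rely on glycolysis and on respiration, and many of these carriers are expressed there.

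Chd4, the nucleosome remodelling ATPase targeted by the construct, had signals of 1155 and 1480 in the Chd4 RNAi arrays, against 2215 and 1826 in the controls, at the probe set that represents it. This was 65.0% of control (log2 difference -0.62 ± 0.12 SE, adjusted p = 0.00439 in limma), and its other probe sets stood at 56.1% and 48.5% of control. Chd4 did not pass in a fit whose variance did not depend on intensity (adjusted p = 0.146). The median signal of an array lay between 73.4 and 79.4. All 10 embryonic stem cell markers checked, among them Pou5f1, Sox2 and Nanog, were above the common median of 76.0 on all 4 arrays, with summed signals of 97540 and 96810 in Chd4 RNAi cells and 100500 and 102500 in controls. Of these 10, 1 (Utf1) rose and 2 (Esrrb and Klf4) fell. Of 11 fibroblast markers, 6, including Col1a1, Col3a1, Lum, Dcn and Postn, were under the median on every array. The summed signal of the 11 was 1253 and 1133 in Chd4 RNAi cells and 731.5 and 765 in controls, and 1 of 5 tested, Thy1, rose (600.6 and 546.8 in Chd4 RNAi cells against 175.6 and 199.5 in controls). Of 8 fat markers 6, Ucp1, Adipoq and Pparg among them, were under the median on every array, with sums of 337.7 and 384.1 in Chd4 RNAi cells and 335.4 and 286.9 in controls. Of 9 liver and kidney markers 6 were under it throughout, with sums of 633 and 569.2 in Chd4 RNAi cells and 695.9 and 753.6 in controls, and neither these nor the fat markers held a gene that passed. Of 10 muscle markers 5 were under it throughout, with sums of 1950 and 2054 in Chd4 RNAi cells and 2095 and 1685 in controls, and 1 rose and 1 fell. Neuron markers summed to 12590 and 12620 in Chd4 RNAi cells and 13670 and 14000 in controls. Stmn2 made up most of these sums, at 9718 and 9896 in Chd4 RNAi cells against 11080 and 11520 in controls. Of 8 tested neuron markers, 2 were higher (Tubb3 and Syt1) and 2 lower (Nefl and Stmn2). Log2 differences were above 0 in 5 of the 8 and below 0 in 3, with a median of 0.325. The share that passed was 30% of tested stem cell markers, 20% of fibroblast, 40% of muscle and 50% of neuron markers. Over all 12615 tested genes 20.5% passed, 11.7% higher and 8.81% lower. The part of other cell types in the carrier results was not tested. Effects of doxycycline, of RNAi as such and of Chd4 loss cannot be told apart in this design, nor can less RNA per cell and fewer cells of a type.

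Of the 45 carrier genes, 40 passed the filter on dim signals and were tested, and 9 changed at an adjusted p under 0.05 (22.5%, where 20.5% of all 12615 tested genes did). Of these 9 genes 7, or 17.5% of the tested carriers, rose in Chd4 RNAi cells, namely Slc25a20, Slc25a30, Slc25a4, Slc25a12, Slc25a46, Slc25a13 and Slc25a5. Among all genes 11.7% rose. The carriers that fell were Slc25a16 and Slc25a36, 5.00% of those tested beside 8.81% of all genes. The share of carriers called was therefore close to that of the array as a whole. Changes were small, from 1.16-fold to 1.62-fold, and 2 of the 9 (Slc25a20 and Slc25a16) reached 1.5-fold, where 41.2% of all genes that changed did. The median log2 difference of the tested carriers was -0.034, against 0.014 over all genes tested. In 22 carriers (55.0%) both Chd4 RNAi arrays lay on the same side of both control arrays, which held for 60.6% of all tested genes. All 9 calls fell among the 20 carriers with the stronger signals, where the standard errors of the called genes were 0.046 to 0.12 on the log2 scale. Among the brighter carriers that were not called, standard errors reached 0.15 (Slc25a40). In the 20 dimmer carriers the standard errors were 0.14 to 0.47, so the precision there was mostly lower. Their log2 differences were -0.59 to 0.55, with adjusted p of 0.133 to 0.991 in limma. Without the intensity trend in the variance model, 1 carrier (Slc25a20) and 421 of all genes (3.34%) passed.

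**Figure D1:**
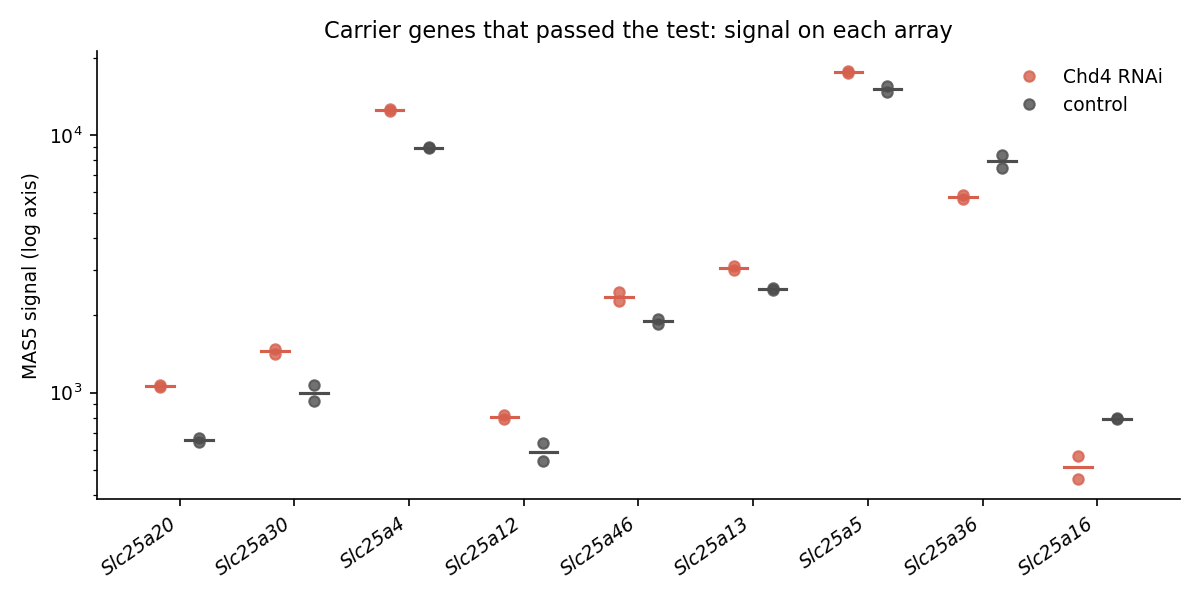
Deposited MAS5 signal (log axis) of the 9 carrier genes that passed the test, with Chd4 RNAi arrays to the left and control arrays to the right of each gene. Points are arrays (n = 2 per group) and short lines are group means. The 7 genes at the left are higher and Slc25a36 and Slc25a16 are lower in Chd4 RNAi cells, and in none of the 9 do the groups overlap.

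The ADP/ATP carriers supply the cytosol with ATP made by oxidative phosphorylation. Slc25a4 (probe set 1455069_x_at), the isoform best known from heart and muscle, had signals of 12600 and 12390 in Chd4 RNAi cells, against 8890 and 8968 in controls. Both knockdown arrays were above both controls, and the gene rose 1.40-fold (log2 0.48 ± 0.047 SE, adjusted p = 5.26e-05 in limma). Its 2 other probe sets above the filter rose too, 1434897_a_at by 1.45-fold and 1424562_a_at by 1.42-fold. The remaining probe set, 1424563_at, was dim, with 20.19 and 33.77 in Chd4 RNAi cells against 45.84 and 46.79 in controls, and averaging all 4 on the log2 scale ended the call (0.18, adjusted p = 0.151).

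Slc25a5 (1436874_x_at), the ADP/ATP carrier isoform of most proliferating cells, had 17710 and 17430 in Chd4 RNAi cells and 14750 and 15490 in controls. The groups did not overlap, and it rose 1.16-fold at this probe set (0.22 ± 0.046, adjusted p = 0.00698). Its 7 other probe sets disagreed. In the fit over probe sets 1430542_a_at and 1434801_x_at were also higher (1.21-fold and 1.15-fold), whereas 1438545_at and 1438922_x_at were lower, the last with 1941 and 2010 in Chd4 RNAi cells against 2430 and 2631 in controls (adjusted p = 0.00831). The mean over its probe sets gave a log2 difference of 0.021 (adjusted p = 0.798). Affymetrix marks with _x_at the probe sets whose probes can also match other transcripts. In Slc25a5, 6 of the 8 probe sets end in this suffix, as does the representative one of Slc25a4. The signals of these related genes may therefore be mixed, which was not tested. Slc25a3, which brings in the phosphate for ATP synthesis, had 16220 and 14920 in Chd4 RNAi cells and 14180 and 14400 in controls and did not pass (1.09-fold higher, adjusted p = 0.116), although it did without Chd4 RNAi replicate 2 (log2 0.18, adjusted p = 0.0372).

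The carnitine/acylcarnitine carrier Slc25a20 (1423108_at), which passes long-chain acyl groups into the matrix for fatty acid oxidation, showed the largest rise among the tested carriers. Signals were 1072 and 1047 in Chd4 RNAi cells and 645.2 and 664.4 in controls, or 1.62-fold (0.69 ± 0.094, adjusted p = 0.000481). The replicates of each group lay close together and far from the other group. A second probe set, 1423109_s_at, had 677.5 and 560.7 in Chd4 RNAi cells against 366.4 and 370.8 in controls, a 1.67-fold rise. The call of Slc25a20 was kept under all 11 alternative settings that were run, with log2 differences of 0.67 to 0.72.

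Slc25a30 (1420836_at), also named KMCP1, is a close relative of the uncoupling proteins. It had 1483 and 1411 in Chd4 RNAi cells against 927.5 and 1069 in controls and rose 1.45-fold at its representative probe set (0.54 ± 0.093, adjusted p = 0.00225). Its 3 other probe sets above the filter were 1.05-fold to 1.18-fold higher and none passed, and the call ended when the probe sets were averaged (0.22, adjusted p = 0.656). The other tested relatives, Slc25a14, Slc25a27 and Ucp3, did not pass, with log2 differences between -0.20 and -0.027 and standard errors of 0.31 to 0.35. Ucp1, the uncoupling protein of brown fat, was below the filter with 4.541 and 21.98 in Chd4 RNAi cells and 47.08 and 64.68 in controls.

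Both aspartate/glutamate carriers were higher in Chd4 RNAi cells and passed the test. These proteins exchange matrix aspartate for glutamate and form a step of the malate-aspartate shuttle, which moves reducing equivalents from cytosolic NADH into mitochondria. Slc25a12 (1428440_at) had 792.3 and 821.6 in Chd4 RNAi cells against 635.5 and 540.6 in controls, without overlap, and rose 1.38-fold (0.46 ± 0.11, adjusted p = 0.0143). Slc25a13 (1449481_at) had 2994 and 3115 in Chd4 RNAi cells against 2559 and 2511 in controls and rose 1.20-fold (0.27 ± 0.064, adjusted p = 0.0126). Both calls were lost without control replicate 2, where the log2 differences were 0.34 for Slc25a12 (adjusted p = 0.104) and 0.255 for Slc25a13 (adjusted p = 0.0605). They were also lost without Chd4 RNAi replicate 2, at 0.435 for Slc25a12 (adjusted p = 0.0516) and 0.24 for Slc25a13 (adjusted p = 0.0551). With averaged probe sets Slc25a12 had a log2 difference of 0.63 (adjusted p = 0.128).

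The partner of these carriers in the shuttle, the malate/oxoglutarate carrier Slc25a11, had 1366 and 1335 in Chd4 RNAi cells against 1470 and 1385 in controls and did not pass (log2 -0.079 ± 0.080, adjusted p = 0.533). The citrate carrier Slc25a1, which exports citrate for fatty acid and sterol synthesis, had 1484 and 1540 in Chd4 RNAi cells against 1469 and 1351 in controls (0.10 ± 0.081, adjusted p = 0.421). The glutamate carrier Slc25a22 and the dicarboxylate carrier Slc25a10 had log2 differences of 0.14 ± 0.22 and -0.083 ± 0.19. Slc25a22 had 482.7 and 280.7 in Chd4 RNAi cells against 335.3 and 331.8 in controls, and without Chd4 RNAi replicate 2 it passed with a log2 difference of 0.53 (adjusted p = 0.0454). A second probe set of Slc25a10, 1416955_at, was lower in the fit over probe sets, with 48.6 and 66.8 in Chd4 RNAi cells and 111 and 136 in controls, at least 1.61-fold when signals under the median of 76.0 are set to it (adjusted p = 0.0455).

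Both calls in the lower direction were in carriers of nucleotides and cofactors, of which 2 of 8 tested fell, 0 rose and 7 had a log2 difference below 0, with a median of -0.082. Over all 12615 tested genes 8.81% fell and 6069 had a log2 difference below 0. Slc25a36 (1419657_a_at), shown for the human protein to carry pyrimidine nucleotides, had 5842 and 5658 in Chd4 RNAi cells against 7474 and 8368 in controls. The groups did not overlap, and it fell to 72.7% of control (-0.46 ± 0.062, adjusted p = 0.000492). All 3 of its probe sets were lower, with 1067 and 950 in Chd4 RNAi cells against 1646 and 1631 in controls at 1419656_at (61.4% of control) and 431.9 and 407.8 against 548.5 and 625.3 in controls at 1438520_at (71.7%). Slc25a16 (1434996_at), the relative of the yeast carrier Leu5, which that organism needs for coenzyme A in its mitochondria, had 461.9 and 565.3 in Chd4 RNAi cells against 791 and 794.1 in controls. It fell to 64.5% of control at its only probe set (-0.63 ± 0.12, adjusted p = 0.00398), the largest fall among the tested carriers.

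Other carriers of this kind did not pass. Slc25a17, the peroxisomal carrier of coenzyme A and other nucleotides, had 699 and 712.3 in Chd4 RNAi cells against 875.3 and 808.9 in controls, which did not overlap (-0.25 ± 0.099, adjusted p = 0.0952). Slc25a33, which like Slc25a36 carries pyrimidine nucleotides, had 1134 and 1273 in Chd4 RNAi cells against 1355 and 1158 in controls (-0.060 ± 0.10, adjusted p = 0.724). The folate and FAD carrier Slc25a32 had 612.8 and 524.8 in Chd4 RNAi cells against 629.7 and 586.9 in controls (-0.10 ± 0.12, adjusted p = 0.607). Slc25a51, a NAD carrier, had 1344 and 1108 in Chd4 RNAi cells against 1156 and 1408 in controls (-0.064 ± 0.12, adjusted p = 0.747). The groups of these last 3 genes overlapped. Log2 differences of Slc25a26, the S-adenosylmethionine carrier, and of Slc25a42, a coenzyme A carrier, were 0.13 ± 0.16 and -0.051 ± 0.21.

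Slc25a46 (1418134_at), an outer membrane protein linked to mitochondrial fission and membrane organisation, had 2262 and 2450 in Chd4 RNAi cells against 1849 and 1932 in controls and rose 1.25-fold (0.32 ± 0.073, adjusted p = 0.0108). Its other probe set rose 1.29-fold, with 2465 and 2202 in Chd4 RNAi cells against 1809 and 1802 in controls. The groups overlapped at neither probe set. The call at the first ended without control replicate 1 (0.28, adjusted p = 0.057) and without Chd4 RNAi replicate 2 (0.26, adjusted p = 0.0596). The other 5 tested carriers of unsettled substrate, Slc25a34, Slc25a35, Slc25a45, Slc25a47 and Slc25a53, had log2 differences of -0.59 to -0.043 and none passed.

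None of the 7 tested carriers of amino acids, ornithine and glutathione passed in limma, with log2 differences from -0.45 to 0.21 and a median of 0.019, and 2 of them had an unadjusted p under 0.05. The first was the ornithine carrier Slc25a15 of the urea cycle, at 1687 and 1775 in Chd4 RNAi cells against 1976 and 1983 in controls (-0.19 ± 0.072, unadjusted p = 0.021, adjusted p = 0.0815). The other was the glutathione carrier Slc25a39, at 12990 and 13500 in Chd4 RNAi cells against 12400 and 12090 in controls (0.11 ± 0.047, unadjusted p = 0.0354, adjusted p = 0.116). Neither gene had overlapping groups. A further Slc25a39 probe set, 1456176_x_at, was lower in the fit over probe sets (5705 and 5602 in Chd4 RNAi cells against 6289 and 6735 in controls, adjusted p = 0.0378). Slc25a40, its close relative, had 1016 and 1414 in Chd4 RNAi cells against 1165 and 927.4 in controls (0.21 ± 0.15, adjusted p = 0.369) and passed only without Chd4 RNAi replicate 1 among the settings run (0.44, adjusted p = 0.0328). Slc25a38, the glycine carrier needed for haem synthesis, had a log2 difference of -0.17 ± 0.14.

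The mitoferrins, which import iron for haem and iron-sulphur clusters, overlapped between the groups. Slc25a28 had 616.3 and 733.1 in Chd4 RNAi cells against 634.4 and 688.1 in controls, and Slc25a37 had 287.7 and 267.4 in Chd4 RNAi cells against 240.3 and 322.2 in controls. Their log2 differences were 0.025 ± 0.12 and -0.0044 ± 0.18. The tested carriers of the ATP-Mg/phosphate type, which adjust the adenine nucleotide pool of the matrix and respond to calcium, did not pass either. Slc25a24 had 138.4 and 143.4 in Chd4 RNAi cells against 90.4 and 102 in controls (0.55 ± 0.26, adjusted p = 0.161), and Slc25a23 and Slc25a25 had log2 differences of 0.30 ± 0.25 and -0.096 ± 0.19. The 5 carriers below the filter were Slc25a18, Slc25a41, Slc25a48, Slc25a54 and Ucp1, with signals of 4.24 to 70.8 in Chd4 RNAi cells and 12.4 to 64.7 in controls.

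**Figure D2:**
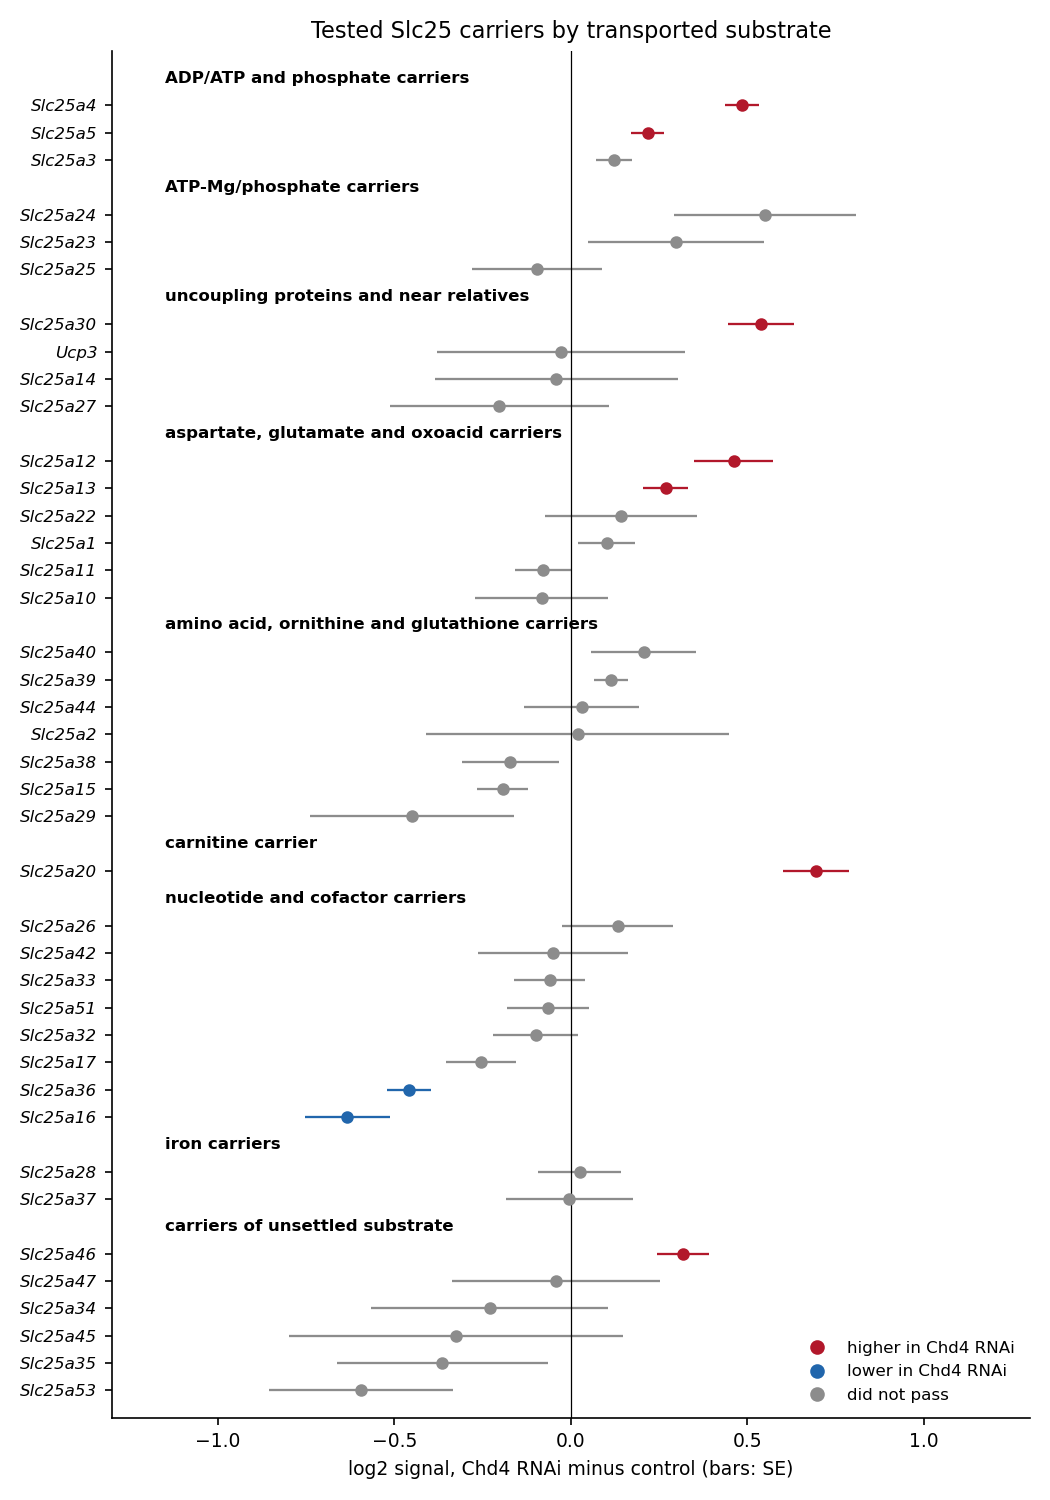
Log2 difference in signal (Chd4 RNAi minus control) of the 40 tested carriers, grouped by what they transport. Points are estimates and bars are standard errors from limma (n = 2 arrays per group), and colour marks the 7 genes that rose, the 2 that fell and the 31 that did not pass. Bars are wide for dim genes such as Slc25a45 and short for bright ones such as Slc25a4.

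Several probe sets were available for 24 of the 45 carriers. Of the 75 carrier probe sets above the filter, 21 were called when each probe set was tested on its own (28.0%, beside 14.2% of all 27022 probe sets tested), 13 of them higher and 8 lower. Several of these probe sets belong to the same gene, so they are no independent count. The other probe sets above the filter had the same sign as the representative one in Slc25a4 (2 of 2), Slc25a12 (2 of 2), Slc25a20 (1 of 1), Slc25a46 (1 of 1), Slc25a36 (2 of 2) and Slc25a30 (3 of 3), and in 4 of 7 for Slc25a5. In Slc25a12 neither other probe set passed in limma (1436440_at, adjusted p = 0.108, and 1444489_at, adjusted p = 0.867). At 1444489_at the groups overlapped. Slc25a13 and Slc25a16 had a lone probe set.

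**Figure D3:**
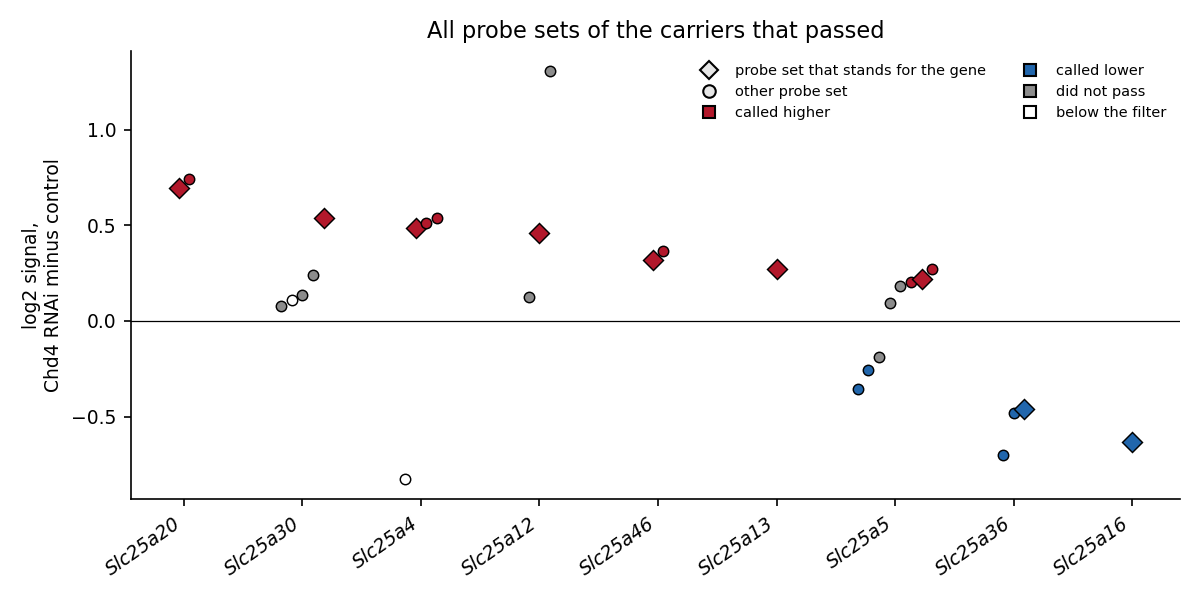
Log2 difference (Chd4 RNAi minus control) of every probe set of the 9 carriers that passed. Diamonds are the probe sets that stand for the gene and circles the others, coloured by the call in the test over all probe sets. The probe sets of Slc25a36 lie on the same side of 0, as do those of Slc25a20, while those of Slc25a5 lie on both sides. Those of Slc25a4 also lie on both sides, with 1424563_at, which was below the filter, under 0 (-0.83).

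The stretch of 250 bases before the annotated start is shown for the rises of Slc25a4 and Slc25a20 and for both genes that fell. In the first 2 and in Slc25a36 all probe sets above the filter were called alike, and Slc25a16 had the largest fall. The sequences are from RefSeq, build GRCm38.p6, 5′ to 3′ in the sense of the gene. The Slc25a16 stretch ends on the first base of the span listed for the gene. Capitals mark matches, on either strand, to 6 short motifs: TGCGCA (NRF1), AAGGTCA (oestrogen-related receptors), CCGGAAG (GABP), CACGTG (E-box), CCAAT and GGGCGG (GC box). None of these motifs lies within another.
Slc25a4 (chr8:46211063-46211312, minus strand): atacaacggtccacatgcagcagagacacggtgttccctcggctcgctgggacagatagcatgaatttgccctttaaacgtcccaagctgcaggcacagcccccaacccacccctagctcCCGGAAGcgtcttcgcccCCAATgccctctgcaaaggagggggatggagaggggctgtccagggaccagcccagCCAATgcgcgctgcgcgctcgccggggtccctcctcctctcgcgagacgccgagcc
Slc25a20 (chr9:108661886-108662135, plus strand): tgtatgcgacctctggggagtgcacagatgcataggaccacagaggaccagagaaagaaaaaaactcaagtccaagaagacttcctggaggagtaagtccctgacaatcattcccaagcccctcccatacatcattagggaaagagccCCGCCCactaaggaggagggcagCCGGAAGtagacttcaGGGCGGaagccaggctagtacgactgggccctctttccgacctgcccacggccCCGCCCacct
Slc25a36 (chr9:97111042-97111291, minus strand): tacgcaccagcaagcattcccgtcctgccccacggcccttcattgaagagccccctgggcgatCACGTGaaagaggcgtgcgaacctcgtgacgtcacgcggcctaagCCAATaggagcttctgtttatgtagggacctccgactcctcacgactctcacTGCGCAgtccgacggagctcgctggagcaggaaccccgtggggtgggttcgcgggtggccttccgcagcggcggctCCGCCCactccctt
Slc25a16 (chr10:62920383-62920632, plus strand): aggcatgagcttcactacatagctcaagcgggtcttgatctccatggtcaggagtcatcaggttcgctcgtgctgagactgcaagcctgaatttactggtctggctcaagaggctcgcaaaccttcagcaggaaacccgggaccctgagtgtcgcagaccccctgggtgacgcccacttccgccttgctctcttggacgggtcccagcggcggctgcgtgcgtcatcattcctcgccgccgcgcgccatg

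The Slc25a4 stretch held 1 GABP and 2 CCAAT matches, that of Slc25a20 held 1 GABP match and 3 GC boxes, that of Slc25a36 held 1 each of the NRF1, E-box, CCAAT and GC box motifs, and that of Slc25a16 held 0. In all, 35 carrier genes had 44 such windows in the RefSeq table. The GC box was found in 70.5% of them and in 32.7% of all 32851 windows, the E-box in 15.9% and 6.02%, the GABP letters in 13.6% and 6.91%, CCAAT in 45.5% and 33.8%, the NRF1 letters in 6.82% and 6.43% and the receptor letters in 2.27% and 4.08%. The carrier windows were also richer in G and C, with a median of 57.8% against 52.4% over all windows. Among the 8 called carriers with a window, 4 had a GC box, 4 a CCAAT, 2 a GABP, 2 an E-box, 1 an NRF1 and 0 a receptor match. The windows of Slc25a12 and Slc25a13 reach into the span listed for the gene. Motif matches are letters in a sequence and no measurement of binding, and the genes that rose and those that fell were not tested against each other.

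Genes that act with the carriers were counted from lists of their own. Without the intensity trend in the variance model, Mpc1 was the only one of the 13 genes named by rule from these lists that passed. Among 14 tested genes of the machinery that imports carriers, 3 fell and 0 rose in limma (21.4% called, where 20.5% of all genes were), 12 had a log2 difference below 0 (as did 6069 of all 12615 genes) and the median was -0.10. Tomm70a, the receptor that binds carrier precursors, had 4860 and 5069 in Chd4 RNAi cells against 6011 and 6521 in controls and fell to 79.3% of control (log2 -0.33, adjusted p = 0.00278). With its probe sets averaged the log2 difference was -0.31 and did not pass (adjusted p = 0.0589). Timm10, a small chaperone that escorts carriers between the membranes, had 2798 and 2680 in Chd4 RNAi cells against 3506 and 3237 in controls (81.3%, adjusted p = 0.00948). Its call ended without control replicate 1 (log2 -0.24 against -0.30, adjusted p = 0.0758). Its partner Timm9 was at 387.3 and 331.9 in Chd4 RNAi cells against 455.5 and 453.7 in controls and did not pass (adjusted p = 0.101). Tomm7, a small subunit of the outer membrane pore, fell to 86.8% (adjusted p = 0.0244), a call that ended without control replicate 1, control replicate 2 or Chd4 RNAi replicate 1 (adjusted p = 0.0943, 0.0771 and 0.111) and with averaged probe sets (adjusted p = 0.379).

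Of 17 tested mitochondrial transporters outside the Slc25 rule, 1 rose and 2 fell (17.6% called, where 20.5% of all genes were), with a median log2 difference of -0.094. Mpc1, a subunit of the mitochondrial pyruvate carrier, had 2164 and 2071 in Chd4 RNAi cells against 1221 and 1269 in controls and rose 1.70-fold (0.77 ± 0.075, adjusted p = 5.66e-05). Vdac1, the main pore of the outer membrane, fell to 84.6% of control (11040 and 11050 in Chd4 RNAi cells against 12720 and 13420 in controls, adjusted p = 0.00517), and Ghitm, an inner membrane protein, to 83.2% (adjusted p = 0.0152). The call of Ghitm ended without control replicate 2 or Chd4 RNAi replicate 2 (adjusted p = 0.0842 and 0.0781) and with averaged probe sets (adjusted p = 0.253).

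Among 14 tested enzymes that make or use what the carriers transport, 2 rose and 3 fell (35.7% called, where 20.5% of all genes were), with a median log2 difference of 0.11. Mdh1, the cytosolic malate dehydrogenase of the malate-aspartate shuttle, had 8740 on both Chd4 RNAi arrays against 11220 and 12050 in controls and fell to 75.2% of control (-0.41 ± 0.052, adjusted p = 0.000306). The mitochondrial enzymes of that shuttle, Mdh2 and Got2, and the cytosolic Got1 did not pass (log2 0.065, 0.18 and 0.060, adjusted p = 0.429, 0.0605 and 0.442). Gpd2, the mitochondrial enzyme of the other NADH shuttle, rose 1.32-fold (2288 and 2498 in Chd4 RNAi cells against 1678 and 1961 in controls, adjusted p = 0.00818), a call that ended without control replicate 1 (adjusted p = 0.057) and with averaged probe sets (adjusted p = 0.195). Oat, which makes glutamate semialdehyde from ornithine, rose 1.20-fold (log2 0.26, adjusted p = 0.0323). Its call was lost at the same log2 difference without the filter (adjusted p = 0.0502) and with averaged probe sets (adjusted p = 0.0598), and at log2 differences of 0.19 and 0.20 without control replicate 1 or Chd4 RNAi replicate 2 (adjusted p = 0.187 and 0.15). Shmt2, the mitochondrial serine hydroxymethyltransferase, fell to 78.1% of control (adjusted p = 0.00532, and 0.068 with averaged probe sets). In the carnitine system around Slc25a20, Cpt1a forms acylcarnitines at the outer membrane. It had 958.9 and 1197 in Chd4 RNAi cells against 1367 and 1326 in controls and was lower (-0.33 ± 0.11, adjusted p = 0.0488). This call lay close to the threshold. It was lost with quantile normalization, without the filter, without the intensity trend and with a replicate block. It was also lost without control replicate 1, control replicate 2 or Chd4 RNAi replicate 1. Cpt2 in the matrix did not pass (0.29 ± 0.14, adjusted p = 0.168).

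Of 13 tested regulators of mitochondrial genes, 3 fell and 0 rose in limma (23.1% called, where 20.5% of all genes were), with a median log2 difference of -0.24. Of the 27 tested enzymes and regulators together 8 were called, and 5 without the filter or without control replicate 2. Gabpa, a subunit of GABP, fell to 80.2% of control (3794 and 3656 in Chd4 RNAi cells against 4413 and 4885 in controls, adjusted p = 0.00602, and 0.0522 without control replicate 2). Esrrb, an orphan nuclear receptor of naive stem cells that is also among the stem cell markers above, fell to 81.8% (4169 and 4330 in Chd4 RNAi cells against 5142 and 5245 in controls, adjusted p = 0.00445). The coactivator gene Ppargc1b was dim, with 116.4 and 65.1 in Chd4 RNAi cells against 149 and 218 in controls, and fell to 48.3% of control (adjusted p = 0.0405). That call ended without the filter (adjusted p = 0.0871), with averaged probe sets (0.09), without control replicate 2 (0.243) and without Chd4 RNAi replicate 2 (0.179). Nrf1 and Tfam, factors of nuclear and mitochondrial transcription, did not pass (log2 -0.32 and 0.046, adjusted p = 0.0934 and 0.62).

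**Figure D4:**
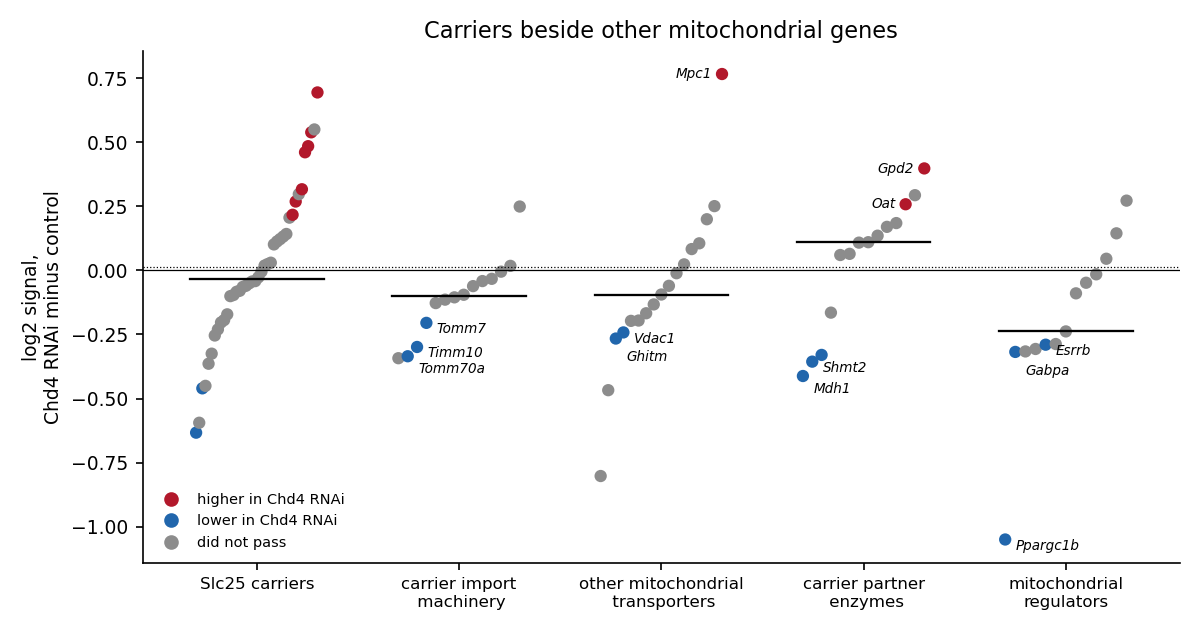
Log2 difference (Chd4 RNAi minus control) of the tested carriers and of 4 further lists of mitochondrial genes, each point a gene and each thick line the median of its list. The dotted line is the median of all 12615 tested genes (0.014). The medians of the carriers (-0.034), the import machinery (-0.10), the other transporters (-0.094) and the regulators (-0.24) lie below 0. That of the partner enzymes lies above it (0.11), and Mpc1 stands highest.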

How the data were processed

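Per the submitters' processing notes the authors made the deposited values with MAS5, and they are array intensity on a linear scale, with 1 signal per probe set and array. The MAS5 version, scaling target and detection calls are not given in the sources used here. Sample titles gave the groups and replicate numbers. The platform annotation gave 1 symbol for 34945 of 45037 non-control probe sets, and all 45 carriers matched the RefSeq table by gene ID. Log2 signals, with no pseudocount, were compared for 12615 genes whose brightest probe set lay in the top 60% by mean log2 signal (42.4 or more). Differences were tested two-sided over all these genes in limma 3.58.1 (R 4.3.3) with an intensity trend in eBayes and Benjamini-Hochberg adjustment, with a threshold of 0.05, and likewise over 27022 probe sets. With 2 arrays per group, 2 residual and 9.12 prior degrees of freedom stand behind each p value, and p values cover only the spread between these arrays. Their number limits the precision. The fit was tested on simulated data.

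Named were all carriers that passed, the brighter of the others, and up to 4 called genes with the smallest adjusted p in each further list. Cpt1a and the genes given beside them for their shared role (Timm9, Mdh2, Got1, Got2, Cpt2, Nrf1, Tfam, and the dimmer carriers) were chosen after their values were seen. The members and lists were chosen with earlier results of these data known. Some listed genes were not analysed here. The alternatives were a pseudocount of 16, quantile normalization, 2 other filters, no intensity trend, averaged probe sets, a replicate block and each array left out in turn.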

Additional observations from a re-analysis of the deposited data

How the results depend on the processing

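The 9 carrier calls kept their direction under all 11 alternatives and were kept as calls in 81 of 99 cases. The exceptions were the variance model without an intensity trend, in which 8 of the 9 were lost, averaged probe sets, in which 4 were lost (Slc25a4, Slc25a5, Slc25a12 and Slc25a30), and the left-out arrays given beside Slc25a12, Slc25a13 and Slc25a46. Without the trend 1 carrier, 421 of all genes, 1 import or transport gene and 0 enzymes or regulators changed in limma, and Chd4 had a log2 difference of -0.62 (adjusted p = 0.146). With averaged probe sets the counts were 5, 1380, 3 and 4, and without a filter 5 enzymes or regulators changed in place of 8. Leaving out 1 array gave 7 to 10 carriers, 1785 to 2145 genes of all, 4 to 6 import or transport genes and 5 to 9 enzymes or regulators, the 5 without control replicate 2. The replicate block gave 9 carriers, the same 9 genes, and 2260 of all genes, and under it Ppargc1b did not pass (adjusted p = 0.0705). The replicate numbers do not pair the samples in the labels, and deviations of same-numbered arrays correlated at 0.018. Of the carriers that did not pass, Slc25a40 did without Chd4 RNAi replicate 1, and Slc25a3 and the dimmer Slc25a22 did without Chd4 RNAi replicate 2. Among 121 values of the 11 brighter ones 9 had the other sign, none of them past the threshold. Causes were not tested. Dim probe sets limit what can be seen, and MAS5 detection calls were not used here.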
